A study of Danio rerio with 6 samples.

Results

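Among the features measured in zebrafish hearts, 238 were at least 3-fold more abundant after injection of a morpholino against tnnt2a, and their levels, test results and positions are described here. A feature is a transcribed locus, listed with its position but without a gene name. The members were selected on the 2 FPKM values of each of 16383 listed features. FPKM counts sequenced fragments per transcript, corrected for transcript length and library size, so that levels of different features can be compared. Both groups had to be at 1 FPKM or more, the morphant value had to be at least 3 times the wild-type value, and the larger value had to lie from 5 to below 1000 FPKM. The locus had to be from 500 to below 200000 bp wide, to be listed for no other feature and to lie outside chromosome 4 from position 30000000 on. These conditions without the fold were met by 8054 features, of which the 238 made up 2.96%. Since the fold itself chose the members, their folds and the q-values of the same contrast are given as a description and support no claim that they differ.

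The study compared hearts dissected at 54 hours post fertilisation from wild-type embryos and from embryos given 1 ng of the tnnt2a morpholino at the one-cell stage. There were 3 libraries per group, each made from total RNA of a pool of about 100 hearts. The wild-type label names no injection, so an effect of injecting and an effect on tnnt2a cannot be told apart, and pooled hearts hide differences between embryos. A morpholino is a short synthetic oligomer that binds a messenger RNA and blocks its translation or splicing. The oligomer and its reverse complement are shown because they define the morphant group. Capitals mark the CAT at its 5′ end and the matching ATG, the letters of a start codon, in the sequence it pairs with.
Morpholino: CATgtttgctctgatctgacacgca
Reverse complement: tgcgtgtcagatcagagcaaacATG

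The gene tnnt2a encodes cardiac troponin T, which anchors the troponin complex to the thin filament of heart muscle and is needed for contraction. Zebrafish that lack it have a heart that forms but does not beat, the silent heart phenotype, and embryos of this age survive without circulation because oxygen reaches their tissues by diffusion. In a beating heart the endocardium, the inner lining, senses the force of flowing blood, and genes such as klf2a are known to respond to it. Because the listed features carry no gene names, neither tnnt2a, nor any flow-responsive gene, nor markers of heart muscle, endocardium or blood were examined, and the labelled tissue was not checked against its markers. In hearts pooled whole, fewer cells of a type and less RNA per cell cannot be told apart.

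Each group has a single value per feature, merged over its 3 libraries by the authors, so no standard deviation or value per library can be given. Depth is unknown. The only test across libraries is that of the authors, whose deposited table gives a test statistic, a p-value and a q-value (a p-value adjusted for the number of features tested). A feature is named as called where that q-value was below 0.05. Among the 12413 listed features at 1 FPKM or more in both groups, no p-value in the authors' deposited table was above 0.7671. Features with larger p-values thus appear to be missing from the list. Shares of listed features may therefore be higher than shares of all tested ones would be.

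The 238 features were of low to moderate abundance. In wild-type hearts they ranged from 1.02 to 95.0 FPKM with a median of 3.08 FPKM, and in morphant hearts from 5.02 to 376.0 FPKM with a median of 13.5 FPKM. The median of all features under the same conditions was 14.1 FPKM in the wild type and 14.4 FPKM in morphants. The members were therefore mostly below the typical level in wild-type hearts and close to it in morphant hearts, an order that the rule favours. Together they made up 0.244% of the summed wild-type FPKM of all listed features and 1.01% of the morphant sum. In wild-type hearts 82 members were below 2 FPKM, near the lower limit of the rule, and 24 were at 20 FPKM or more.

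Folds ranged from 3.0005 to 31.3 with a median of 3.99, and 119 members lay between 3-fold and 4-fold, 55 between 4-fold and 5-fold, 49 between 5-fold and 8-fold and 15 at 8-fold or more. Under the same conditions 100 features were at least 3-fold lower in morphants. Higher features outnumbered lower ones between 3-fold and 4-fold (119 and 41), between 4-fold and 5-fold (55 and 19) and between 5-fold and 8-fold (49 and 25), but 15 features stood on each side at 8-fold or more. The share of higher features was 70.4% over the 338 features, 50% at 8-fold or more, and 63.4% (208 higher and 120 lower) once folds were divided by the median fold of 1.07. No test of this asymmetry was run.

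**Figure D1:**
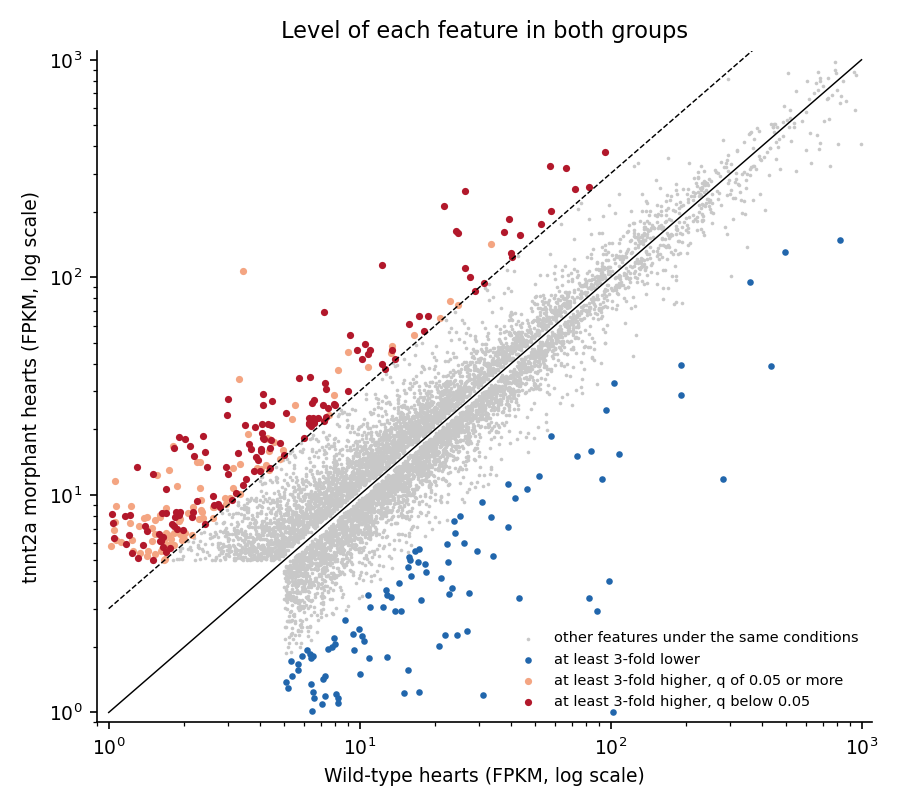
Level of each of the 8054 features in wild-type (x axis) and morphant hearts (y axis), in FPKM on log scales; 1 point is 1 feature, the solid line marks equal levels and the dashed line a 3-fold higher morphant level. The 238 members lie on or above the dashed line, most of them below 10 FPKM in wild-type hearts, and the 141 called members are darker.

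Of the 238 members, 141 (59.2%) were called by the q-value in the authors' deposited table. The background was 3.33% of all listed features called higher and 4.71% of the 8054 features under the same conditions, and nothing is read from the difference because the fold selected the members. Of the 379 called higher under these conditions, the members were 37.2%, and the other calls were below 3-fold. In the authors' deposited table a further 64 members had an unadjusted p-value below 0.05 without being called, and the p-values of the other 33 were larger, up to 0.542. Of the 100 features at least 3-fold lower, 64 were called, against 2.91% of all listed features and 3.6% of the 8054 called lower.

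The share called grew with abundance. It was 39 of 97 members (40.2%) from 5 to below 10 FPKM in morphants, 34 of 57 (59.6%) from 10 to below 20 FPKM, 49 of 63 (77.8%) from 20 to below 100 FPKM and 19 of 21 (90.5%) from 100 FPKM on. It did not grow steadily with the fold, standing at 55.5% between 3-fold and 4-fold, 67.3% between 4-fold and 5-fold, 57.1% between 5-fold and 8-fold and 66.7% above. Called members had a median of 18.5 FPKM in morphants and members not called a median of 8.74 FPKM, while their median folds were 4.12 and 3.82. Features at least 3-fold lower were also called least often in the lowest class, by their wild-type level. There 8 of 30 (26.7%) were called, and 77.8%, 81.8% and 80% in the higher classes in turn. Shares over all features in these classes were not counted.

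The members with the largest folds were divided in the same way. XLOC_018821, a locus of 25901 bp on chromosome 25 (GRCz10, 8448371 to 8474272), went with 3.43 FPKM in the wild type and 107 FPKM in morphants. This was 31.3-fold, nearly 3 times the next fold, yet the authors' deposited table gives a p-value of 0.0411 and a q-value of 0.311, so it was not called. The second, XLOC_002378 on chromosome 10 (44016211 to 44082882), stood at 1.06 and 11.6 FPKM, a 10.9-fold difference. The authors' deposited table gives it a q-value of 0.356, so it was not called either. Whether 1 library carries either difference cannot be seen in merged values.

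The largest called fold was that of a wide locus on chromosome 14 (15511490 to 15651094), with a 10.4-fold rise from 1.29 to 13.5 FPKM. The fourth fold, 10.3 on chromosome 16 (52626256 to 52631239), joined 3.29 and 33.9 FPKM, and its q-value of 0.0726 in the authors' deposited table left it uncalled. The next members were all called, each with q = 0.00173, the smallest q-value of the authors' deposited table. On chromosome 8 a locus at 49896796 to 49946679 rose 9.79-fold, from 21.6 to 212 FPKM. A second chromosome 8 locus, at 933677 to 940431, rose 9.48-fold from 26.2 to 249 FPKM. These chromosome 8 loci combined a fold above 9 with a morphant level above 200 FPKM, which no other member did.

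Other called members were close to them in fold but less abundant. A locus of only 974 bp on chromosome 22 (5093977 to 5094951) rose 9.71-fold from 1.91 to 18.5 FPKM, and the level of one on chromosome 3 (31530411 to 31567584) grew 9.64-fold, from 7.22 to 69.6 FPKM. A chromosome 21 locus (29934035 to 29943063) rose 9.26-fold, from 12.3 to 114 FPKM. The tenth fold, 9.25 on chromosome 3 (60961254 to 60985787), was between 1.81 and 16.7 FPKM, with a q-value of 0.526 in the authors' deposited table. The fifth largest fold among members not called, 8.32 on chromosome 3 (62196270 to 62209257), joined 1.07 and 8.91 FPKM (q = 0.665 in the authors' deposited table). All 5 uncalled members with the largest folds were below 5 FPKM in wild-type hearts, and all but the chromosome 25 locus were below 40 FPKM in morphants.

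The most abundant members had smaller folds. In morphants the highest was a locus on chromosome 2 (21067740 to 21118869), whose level rose from 95.0 to 376.0 FPKM, 3.96-fold. It was followed by a 2465-bp locus near the start of chromosome 15 (31388 to 33853), with a 5.67-fold rise from 57.1 to 324 FPKM, and by a 1377-bp locus on chromosome 16 (24063945 to 24065322), with a 4.78-fold rise from 66.7 to 319 FPKM. On chromosome 9 a locus at 11583155 to 11589229 rose 3.19-fold from 81.7 to 261 FPKM. A chromosome 2 locus at 31779985 to 31784434 rose 3.51-fold from 72.2 to 254 FPKM. All 5 were called, and only 2 of the 21 members at 100 FPKM or more in morphants were not: the chromosome 25 locus above and a chromosome 12 locus of 195301 bp (34462110 to 34657411), at 33.4 and 143 FPKM (q = 0.187 in the authors' deposited table). That chromosome 12 locus was the widest of all members.

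At the 3-fold limit itself, the members just inside were on chromosome 10 (22879103 to 22885306, 28.8 and 86.4 FPKM), on chromosome 4 (19042791 to 19044829, 12.7 and 37.98 FPKM) and on chromosome 2 (5596659 to 5605556, 31.3 and 94.3 FPKM). Their folds were 3.0005 for the first and second and 3.01 for the last, and each was called. Just outside were loci on chromosome 19 (28252689 to 28273810, 1.69 and 5.05 FPKM), on chromosome 1 (25911350 to 25960597, 4.06 and 12.1 FPKM) and on chromosome 6 (561005 to 574539, 4.80 and 14.3 FPKM). Their folds were 2.995, 2.986 and 2.984, and the last 2 were called.

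Over the 238 members the statistic ranged from 0.688 to 27.3 with a median of 2.44 in the authors' deposited table. Of the 80 members with a statistic of 3 or more 78 were called, and of the 84 below 2 only 6 were. The 2 exceptions at the upper end were the chromosome 25 locus with the 31.3-fold difference (statistic 5.09 in the authors' deposited table) and the wide chromosome 12 locus (3.61). The largest statistic, 27.3, belonged to the most abundant member on chromosome 2, whose p-value of 0.0011 in the authors' deposited table was not the smallest. The smallest p-value, 5e-05, was shared by 85 members and 577 listed features, so it does not rank them.

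**Figure D2:**
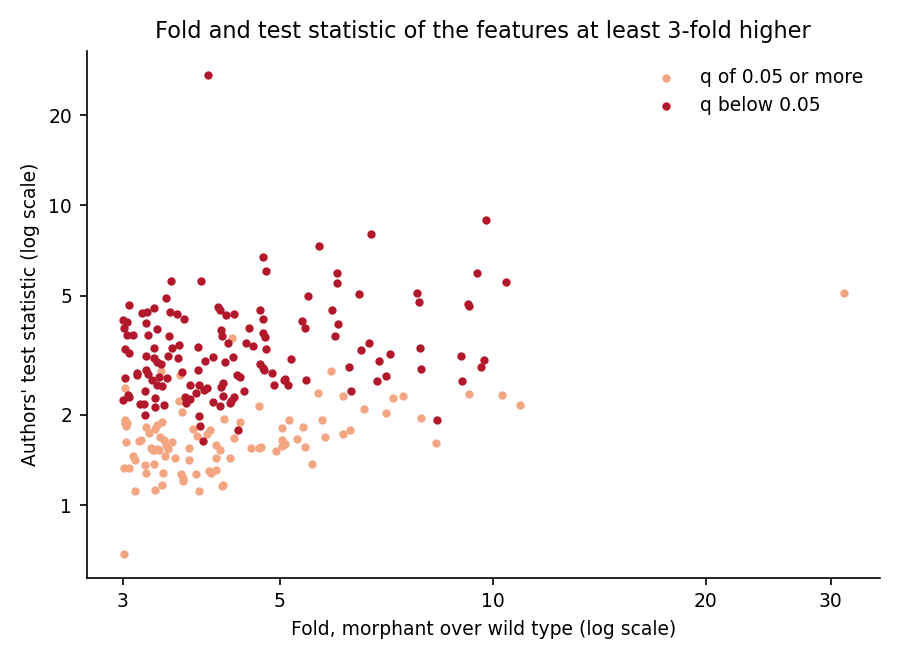
Fold (x axis, log scale) against the test statistic of the authors' deposited table (y axis, log scale) for the 238 members, 1 point each, coloured by the deposited q-value. Called and uncalled members overlap along the fold axis, and the uncalled ones lie mostly below a statistic of 3 except for the point at 31.3-fold and 1 near 4.28-fold.

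The loci of the members were narrow in the median. Their median width was 10910 bp, with quartiles of 5969 and 28208 bp, against 18863 bp for all 8054 features under the same width limits and 18133 bp for the 100 features at least 3-fold lower. Members made up 5.04% of the 258 features from 500 to below 2000 bp and 4.71% of the 2104 features from 2000 to below 10000 bp. These shares were 2.45% of 4127 features from 10000 to below 50000 bp and 1.60% of 1565 features beyond. The features at least 3-fold lower ranged only from 1.15% to 1.57% over the 3 wider classes, with 1 of 258 in the narrowest. Called members had a median of 10891 bp and members not called 11086 bp, which are close to each other. In the narrowest class, however, only 5 of 13 members (38.5%) were called, against 60.6%, 61.4% and 56% in the wider classes in turn. Most of the 13 members in the narrowest class were thus uncalled. Shares called over all features in these width classes were not counted. The width is that of the locus with its introns and not the length of the transcript, and the differences in width were not tested.

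**Figure D3:**
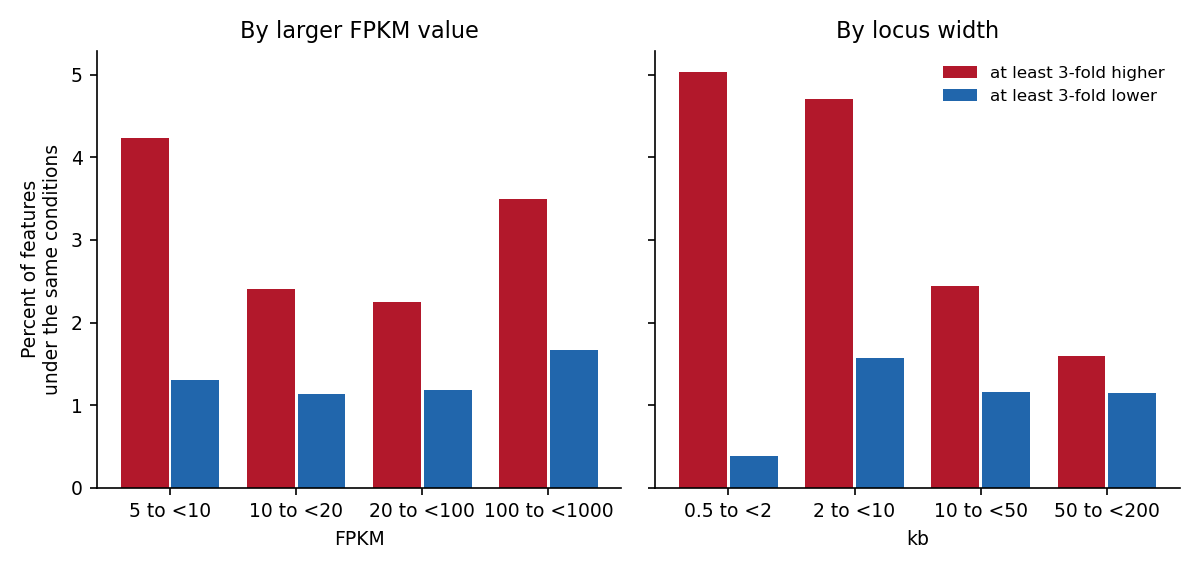
Share of features (y axis, percent of those under the same conditions) that were at least 3-fold higher or lower in morphants, by larger FPKM value (left) and by locus width in kb (right). The bars for higher features fall from 5.04% to 1.60% with width, and no such order is seen with abundance, where they are highest in the lowest and highest classes (4.23% and 3.50%).

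The 3 narrowest called members were a 965-bp locus on chromosome 2 (40326739 to 40327704), which rose from 4.10 to 25.9 FPKM, the 974-bp locus on chromosome 22 and the 1377-bp locus on chromosome 16 described above. The widest called member was a 167317-bp locus on chromosome 9 (3727828 to 3895145), with a 3.46-fold rise from 1.98 to 6.87 FPKM. It was followed by a 145021-bp locus on chromosome 11 (7971403 to 8116424), with a 9.23-fold rise from 2.98 to 27.5 FPKM, and by the chromosome 14 locus with the largest called fold. Neither end of the width range was therefore limited to small folds.

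Members were found on all 25 numbered chromosomes. Their share of the features under the same conditions ran from 1.04% on chromosome 4 (2 of 193) to 4.75% on chromosome 9 (15 of 316), around 2.96% in all. Chromosome 2 followed with 4.44% (17 of 383), then chromosome 25 with 4.42% (11 of 249) and chromosome 10 with 4.26% (13 of 305). On chromosome 9, 13 of the 15 were called, where 59.2% of all members were. By chromosome the share called ran from 2 of 7 on chromosome 15 to 7 of 8 on chromosome 18. Chromosome 4, with the lowest share of higher features, had the highest share of features at least 3-fold lower (3.63%, 7 of 193). These counts are small, shares called over all features of each chromosome were not counted, and the spread over chromosomes was not tested.

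**Figure D4:**
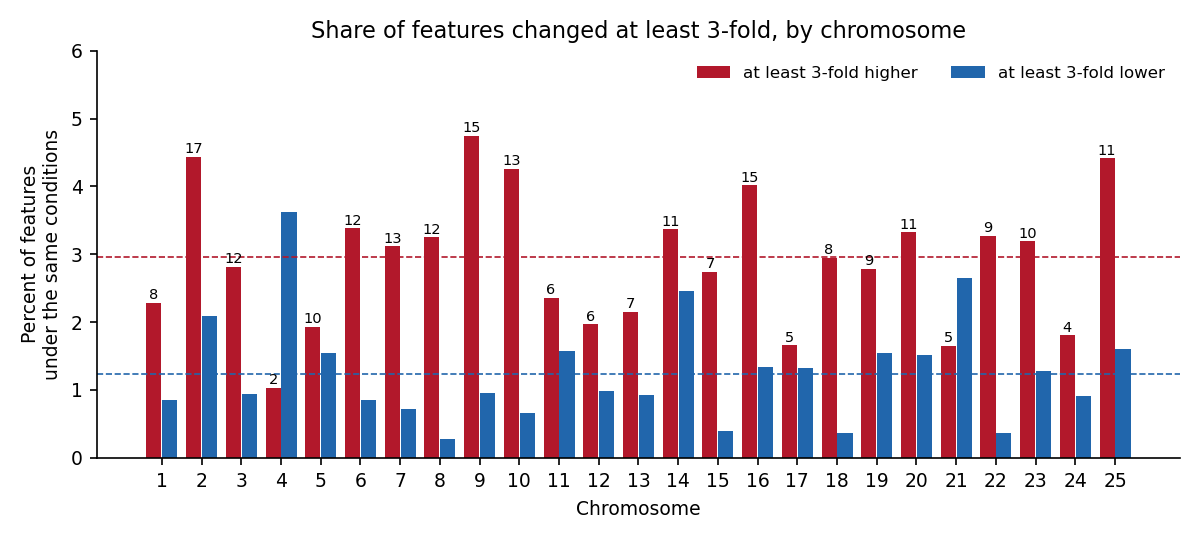
Share of features at least 3-fold higher (with the number of members above each bar) and at least 3-fold lower, by chromosome, as percent of the features under the same conditions (y axis). Dashed lines give the shares over all chromosomes, 2.96% and 1.24%; chromosome 9 stands highest and chromosome 4 lowest for higher features.

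Some members lay next to each other. With starts under 100 kb apart, 30 members (12.6%) fell into 14 runs, 12 of 2 members and 2 of 3. Of the 100 features at least 3-fold lower, a smaller set, 6% had another such feature that near, and the difference was not tested. Of the 16 neighbouring pairs of members in the 14 runs, 12 had no other listed feature between them and 8 were separated by less than 10 kb. Features missing from the list may lie between such members, so adjacency here is adjacency among listed features. No member overlapped another listed feature, but the rule had left out loci listed for more than 1 feature, so this is no finding about the members. In each of the 25 chromosomes the identifiers follow the coordinates in 2 separate series, and 10 of the 16 pairs had both members in the same series. The sources used here do not say what the 2 series stand for, and whether neighbours are pieces of 1 transcript was not tested. Of the 30 members in runs 21 were called, beside 141 of all 238 (59.2%), and in 8 runs every member was.

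The closest were on chromosome 16, where 3 members lay within 20 kb with no other listed feature between them. A 1596-bp locus at 24057093 to 24058689 stood at 3.13 and 13.4 FPKM, 4.27-fold, with a q-value of 0.602 in the authors' deposited table. The 1377-bp locus named above, at 66.7 and 319 FPKM, came next, and after it a locus at 24069722 to 24076129 that rose 4.23-fold, from 11.0 to 46.5 FPKM. The listed feature just before the 3 (24045711 to 24048429) was also called, at 32.8 and 78.6 FPKM and 2.40-fold. The one after them (24113375 to 24220541) stood at 245 and 265 FPKM and was not called. Of the 4 consecutive listed features before it, with folds from 2.40 to 4.78, 3 were called.

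A second stretch lay near the start of chromosome 6. The locus at 579651 to 586261 rose 6.48-fold, from 24.7 to 160.2 FPKM, and the next, at 588876 to 601678, rose 9.03-fold from 1.82 to 16.4 FPKM. They belonged to different series of identifiers. Just before them lay a feature below 1 FPKM in both groups (575042 to 576062, 0.214 and 0.660 FPKM, not called) and the feature at 2.98-fold that narrowly missed the limit (561005 to 574539). The feature that followed, at 661725 to 688111, stood at 57.5 and 53.2 FPKM.

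The other pairs among the 5 closest by their starts were on chromosomes 20, 7 and 14. On chromosome 20, a locus at 10550784 to 10553957 rose from 6.38 to 20.7 FPKM and its neighbour at 10556859 to 10560171 from 6.49 to 22.6 FPKM, so that both their levels and their folds (3.24 and 3.48) were close. On chromosome 7, a locus at 24762766 to 24769819 rose 4.13-fold from 10.2 to 42.0 FPKM. Its neighbour at 24770920 to 24775595 rose 3.25-fold from 40.0 to 130.0 FPKM, and the next listed feature (24776061 to 24778220), stood at 35.2 and 25.2 FPKM and was not called. On chromosome 14 the pair was at 47316816 to 47323359, from 6.35 to 34.8 FPKM, and at 47326023 to 47333048, from 52.8 to 175 FPKM, with folds of 5.48 and 3.32. All 6 of these members were called. A pair on chromosome 25 was also under 3 kb apart, with a locus at 13060659 to 13092173 that rose from 6.57 to 21.4 FPKM and one at 13094885 to 13097591 that rose from 7.31 to 32.7 FPKM.

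The other run of 3 members, on chromosome 10 between 45078109 and 45200630, was interrupted. Its members stood at 1.49 and 6.14 FPKM, 8.97 and 30.1 FPKM, and 3.11 and 9.51 FPKM, and the last 2 were called. The 3 listed features between them had folds of 0.644, 1.27 and 0.544, none of them called. The first of these was below 1 FPKM in both groups (0.590 and 0.380 FPKM). Over all 14 runs, 5 listed features lay between members, and 2 of these were higher in morphants. Of the 2, that on chromosome 20 (40847643 to 40853843) was 3.09-fold higher, at 0.934 and 2.88 FPKM. It was no member because its wild-type value was below 1 FPKM and its larger value below 5 FPKM.

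**Figure D5:**
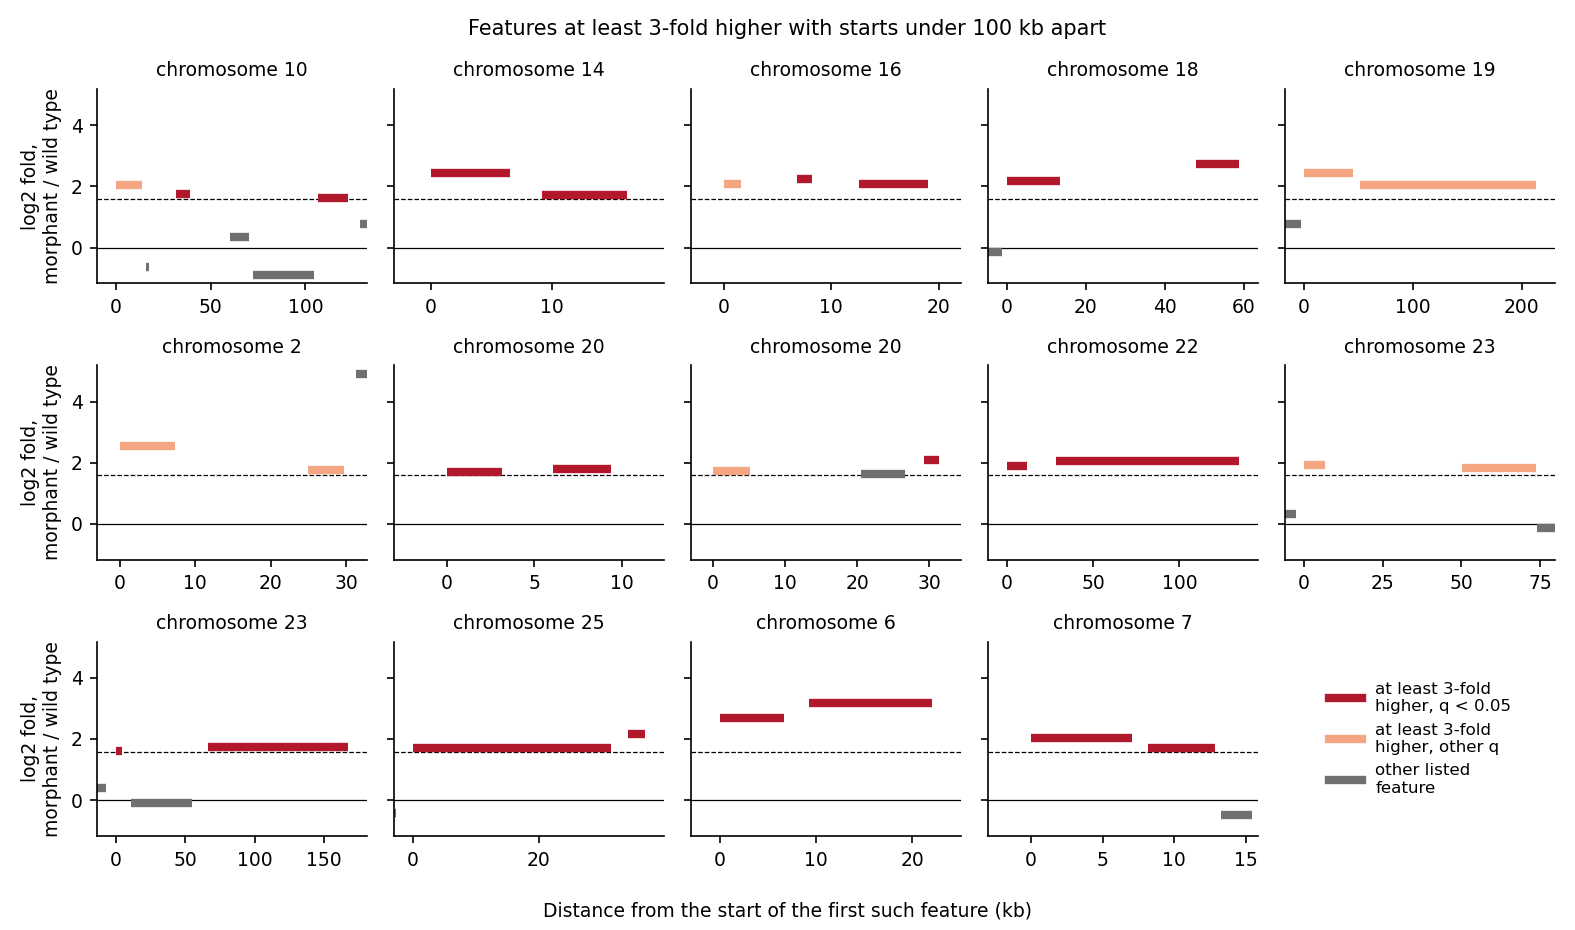
The 14 runs of members with starts under 100 kb apart, 1 panel each; the x axis is the distance in kb from the start of the first member and the y axis the log2 fold of morphant over wild type. Each bar spans a locus, the solid line marks no difference and the dashed line 3-fold. In the chromosome 16, chromosome 6 and chromosome 7 panels no other listed feature lies between the members. In the chromosome 10 panel other features lie between them.

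Most members had no such neighbour. The nearest listed feature on each side at other coordinates was taken, counting features above 0 in both groups whose larger value reached 1 FPKM. Of 476 neighbours of members, 5.46% were themselves members. This share was 1.69% of 15409 neighbours of features between the 3-fold limits and 2.5% of 200 neighbours of features at least 3-fold lower. Of all 476 neighbours of members 58.0% were higher in morphants, with a median log2 fold of 0.19, against 53.4% and 0.12 around features between the limits. By gap, 57.5% were higher around members under 10 kb, 61.0% from 10 to below 50 kb and 55.4% at 50 kb or more. The median log2 folds were 0.19, 0.24 and 0.15 in turn. Around features between the limits the shares were 53.7%, 53.0% and 53.3%, with medians of 0.12, 0.12 and 0.13. Around features at least 3-fold lower the shares were 48.2%, 51.5% and 61.2%. Without neighbours that were members, 55.6% of 450 were higher around members (median log2 fold 0.15) and 52.6% of 15148 around features between the limits (0.11). Neighbours come from the same contrast that chose the members, and features missing from the list were passed over. These differences were not tested.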

How the data were processed

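The submitters' processing notes name Cuffdiff, Cufflinks 2.2.1, STAR 2.5.0c, cutadapt 1.9.1, Trim Galore 0.4.1, FastQC 0.11.4 and bcl2fastq, and the build GRCz10. They tie no step to a tool, and the annotation and normalisation used are not stated there. The authors deposited 1 table with an FPKM value per feature and group, a log2 fold, a test statistic (a score), and a p-value and q-value per feature. Its groups, control and sih, were taken as wild type and morphant, since sih abbreviates silent heart. Folds were recomputed from the FPKM values and equalled the deposited log2 folds within 0.001 for all 238 members. The q-values correspond to adjustment over 19969 features, more than are listed, and those with the largest p-values appear to be the ones missing. Coordinates and identifiers are as deposited, and widths are end minus start. No gene table used here pairs a name with these identifiers or shares their build.

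The members, lists and alternatives were chosen with earlier results of these data known. Loci were named by fixed rules: the 10 largest folds, the 5 highest morphant levels, the 3 members on each side of the limit, the 3 widest and 3 narrowest called, the 5 closest pairs and the 5 largest folds not called. The other loci, among them the chromosome 12 locus, the pairs on chromosomes 6 and 25, the run of 3 on chromosome 10 and the features flanking a run, were chosen after their values were seen. No test of the study's groups could be run on merged values. Selection by the fold, distances and adjustment were tested on simulated data, in which the other conditions of the rule left no feature out. Python 3.11.15, numpy 2.4.6, pandas 2.3.3, scipy 1.17.1 and matplotlib 3.10.9 were used.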

Additional observations from a re-analysis of the deposited data

How the results depend on the processing

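The number of members was 586 at 2-fold, 119 at 4-fold, 152 with the ratio of FPKM + 1 and 156 with 2 FPKM asked of both groups, and stayed between 208 and 277 under the other 6 settings, of which those without a limit on width, on the larger value or on chromosome 4 were added after the data were seen. The share of members called by the deposited q-value was 44.5% at a q-value limit of 0.01, 66.4% at 0.1, 48.6% at 2-fold, 67.9% with 2 FPKM asked of both groups and 67.1% with the ratio of FPKM + 1. It was 60.9% with adjustment over the listed features and 63.0% at 4-fold. The former could hardly fall below the main 59.2%, since the list is shorter and appears to lack the largest p-values. The median locus width was 8698 bp for the 84 members of 20 FPKM or more in morphants, a setting added after the data were seen, and between 10891 and 12309 bp in the other 3. With another member near were 19.97% of the 586 features at 2-fold and 7.56% of the 119 at 4-fold. Whether their number accounts for these shares was not tested. Under the other 4 settings the share lay between 9.66% and 15.1%. Among those settings, the distance between edges and the called members alone were added after the data were seen. The share of higher features among those changed at least 3-fold, with settings added after the data were seen, was 64.5% at 2-fold, 50% at 8-fold and 63.4% with folds divided by the median fold; in the other 5 it lay between 66.9% and 70.1%. No paired analysis was possible because the table has 1 merged column per group, and for the same reason no replicate was left out. No detection limit could be set without the depth.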
